A study of Mus musculus with 8 samples.

Results

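Zfp280b, Zfp280c and Zfp280d are the 3 Zfp280 genes among the 24222 gene symbols counted in mouse haematopoietic stem cells after loss of the histone demethylases Kdm4a, Kdm4b and Kdm4c. They were taken by symbol, and the family was singled out because Zfp280c was higher and Zfp280d lower in knockout than in wild-type cells. Their knockout against wild-type values are therefore given as a description. Bone marrow of C57BL6 mice, 4 labelled WT control and 4 labelled Kdm4a, b c triple knockout (KO), was sorted for these cells 2 weeks after induction, and RNA of every mouse was sequenced as its own library. The sources used here do not give the age of the mice, the sort markers, the deleted exons, the driver and agent of the induction, or whether WT mice received that agent.

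The Zfp280 proteins carry zinc fingers, the small folds by which many proteins bind DNA, and the older gene symbols Suhw2, Suhw3 and Suhw4 name them after suppressor of Hairy wing, an insulator protein of the fruit fly. The human counterpart of Zfp280c has been described as a restraint on DNA end resection, the trimming of broken ends that precedes homologous recombination, and as a factor found at sites bound by CTCF, the main insulator protein of mammals. The human counterpart of Zfp280b has been linked to MDM2, the ubiquitin ligase that lowers p53. The role of Zfp280d is less well described. Kdm4a, Kdm4b and Kdm4c remove methyl groups from histone H3 at lysines 9 and 36, marks of silent chromatin and of transcribed gene bodies.

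The genes lie on different chromosomes, at positions given here for build mm10 from the GENCODE annotation. Zfp280b occupies chromosome 10 from 76032650 to 76043234 on the plus strand, Zfp280c chromosome X from 48541625 to 48594504 on the minus strand, and Zfp280d chromosome 9 from 72274860 to 72363777 on the plus strand. All 3 are protein-coding, with 2, 7 and 21 annotated transcripts. No coding transcript of a member shared a stretch of at least 50 bases at 90% identity with another member, so near-identical sequence within the family was not found. Over the exons of Zfp280d, 746 bases (3.92%) are shared with BC065403, an antisense gene that has no row in the count tables, and the strand setting of the counting is not given. A 139-base stretch of Zfp280b matched the processed pseudogene Gm15968 at 92.8% identity.

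The promoters differed in CpG content, the density of CG pairs that marks CpG islands. In the 300-base window of RefSeq (GRCm38.p6), which runs from 250 bases before to 50 after a gene's start, Zfp280d held 37 CpG, more than 94.4% of the 32851 promoter windows in that table. Zfp280b held 27 CpG, more than 84.5% of them, and Zfp280c held 8, against a median of 7 over all windows. The window of Zfp280c lies wholly before the first start that GENCODE gives, so it may miss CpG nearer that start. Below is the most CpG-rich 30-base stretch that ends at least 60 bases before each RefSeq start, shown to let the densities be read by eye, with CG pairs in capitals.
Zfp280d, chr9:72274772-72274801, plus strand: CGgCGcatatggcCGCGctCGcctccCGCG
Zfp280b, chr10:76032489-76032518, plus strand: CGccCGCGgcagtcactaggggCGccCGag
Zfp280c, chrX:48594718-48594747, minus strand: CGgattcctagtctcaggccaggtccttCG
These stretches hold 7, 5 and 2 CG pairs, in that order. Searched on both strands, the GC box GGGCGG was found once in the window of Zfp280b and in 35.7% of all windows, and the CCAAT box CCAAT was found at 2 places in Zfp280b and in 37.4% of all windows. Neither was found in the windows of Zfp280c or Zfp280d, and the TATA box TATAAA, the E box CACGTG and the ETS motif CCGGAAGT were found in none of the 3 windows.

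The libraries held between 3594315 and 14872493 counts. Kdm4c had 115 ± 22.7 CPM in WT cells and 35.9 ± 10.6 CPM in KO cells (SD, n = 4), Kdm4a 36.2 ± 9.54 and 20.2 ± 3.85 CPM, and Kdm4b 10.1 ± 2.44 and 3.72 ± 1.78 CPM. For each, the 4 KO libraries lay below the 4 WT libraries, as for 2.93% of all genes tested. By edgeR over all genes, Kdm4c passed an adjusted p under 0.05, while Kdm4a (adjusted p = 0.132) and Kdm4b (0.142) did not. CPM are counts scaled to a common library total, adjusted by trimmed means of M-values (TMM). The summed level of 11 genes typical of haematopoietic stem cells lay between 4427 and 4737 CPM in WT and between 3622 and 4002 CPM in KO, without overlap. All 11 were detected, and 2 of them had a fitted fold above 1; at an unadjusted p under 0.05 by edgeR, 1 was higher and 5 were lower, beside 11.2% of all 11498 genes tested (662 higher and 626 lower). The sum of 4 megakaryocyte genes was 153 to 197 CPM in WT and 251 to 269 CPM in KO. Itga2b (52.85 ± 12.5 and 105 ± 15.1 CPM) and Gp1ba (39.55 ± 5.58 and 87.9 ± 14.2 CPM) carried that difference. Both passed an adjusted p under 0.05 by edgeR over all genes. Pf4, at 65.9 ± 9.89 and 49.1 ± 8.30 CPM, and Gp9, at 15.5 ± 4.32 and 20.4 ± 7.52 CPM, did not. The sum of 4 macrophage genes was 3.63 to 11.7 and 14.5 to 27.7 CPM. In the macrophage list C1qa, C1qb and C1qc had at most 36 counts in a library and Cd68 carried the rest. The erythroid, neutrophil and monocyte, lymphoid, and stromal and endothelial sums overlapped between the groups, as did that of 16 cell cycle genes (3768 to 4850 CPM in WT and 4686 to 6417 CPM in KO). Of these 16 cell cycle genes, 15 had a fitted fold above 1, beside 5772 of all 11498 genes tested. Their median log2 fold change was 0.27. At an unadjusted p under 0.05 by edgeR, 5 were higher and 0 lower, and 0 passed the adjusted threshold. Hba-a1, Hbb-bt and Cd3g were at 0 in every library. The part that these differences in stem cell, megakaryocyte, macrophage and cell cycle genes had in the values below was not tested.

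Zfp280c was the member with more RNA in knockout cells. WT mice 1 to 4 had 128, 136, 98.3 and 119 CPM, while the KO mice, in the same order, had 177, 172, 198 and 187 CPM. Every KO library lay above every WT library, and the lowest KO value, that of mouse 2, was well clear of the highest WT value, also that of a mouse 2. The means were 120.5 ± 16.4 CPM and 183 ± 11.3 CPM (SD, n = 4), which the model across all genes fitted as a log2 fold change of 0.61 (SE 0.138), or 1.53-fold. The values rest on 489 to 741 reads per WT library and 1009 to 2964 per KO library. In bulk RNA, a change in how many cells hold a transcript and a change in its amount per cell cannot be told apart.

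Zfp280d went the other way. It was at 160 and 206 CPM in WT mice 1 and 2, and at 150 and 200.2 CPM in WT mice 3 and 4. In KO mice 1 to 4 it was at 123, 116, 112 and 98.4 CPM. Again the groups did not overlap: the highest KO library was below the lowest WT library. The WT libraries formed a lower pair (mice 1 and 3) and a higher pair (mice 2 and 4). The means were 179 ± 28.2 CPM in WT and 112 ± 10.3 CPM in KO (SD, n = 4), a fitted log2 fold change of -0.67 (SE 0.143), or 1.59-fold. The range of counts was 740 to 1244 in WT and 531 to 1680 in KO.

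Zfp280b was the least abundant in counts and did not separate the groups. WT mice 1 to 4 had 59.1, 51.6, 29.3 and 35.1 CPM, so that WT mice 1 and 2 were high and WT mice 3 and 4 low. The KO mice were at 36.5, 37.6, 37.5 and 38.9 CPM, inside the WT range. The means were 43.8 ± 13.9 and 37.6 ± 0.983 CPM (SD, n = 4), with a fitted log2 fold change of -0.21 (SE 0.222), smaller than its own error.

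**Figure D1:**
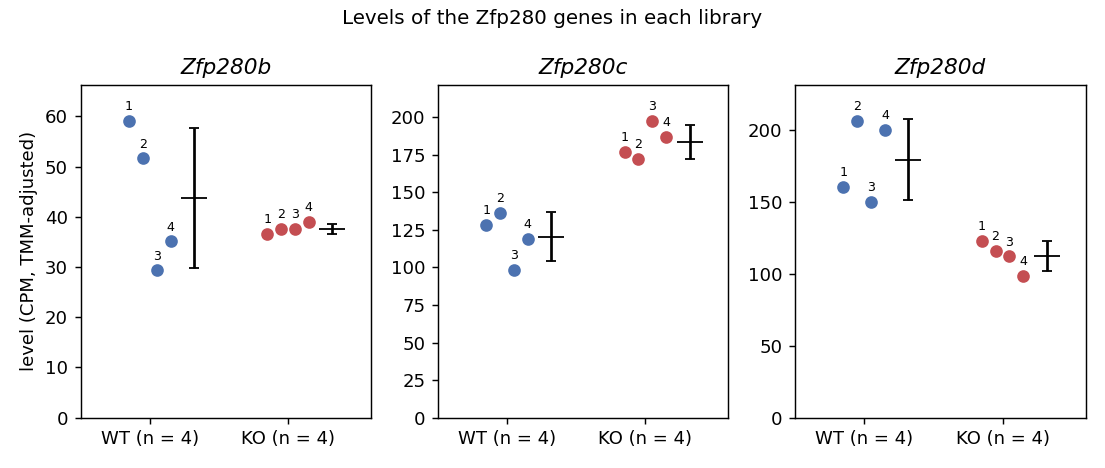
Level of each Zfp280 gene in CPM (vertical axis, from 0, a scale of its own in each panel) in the 4 WT and 4 KO libraries; numbers are mice, and the black bar is the mean with its SD. KO libraries of Zfp280c (172 to 198 CPM) lie above all WT libraries, those of Zfp280d (98.4 to 123 CPM) lie below them, and those of Zfp280b lie inside the WT range.

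By edgeR's quasi-likelihood test with Benjamini-Hochberg adjustment at 0.05, Zfp280c was among 29 genes higher in KO, 0.252% of the 11498 tested, and Zfp280d among 38 lower genes, 0.33%. In either direction 0.583% of all genes were called; since the family was chosen on this contrast, nothing is read from the 2 members called. Libraries without overlap, as seen for both, were found for 5.81% of all genes tested, 2.88% with KO higher and 2.93% with KO lower. Among 305 tested genes with a numbered Zfp symbol, 1.64% were called, Zfp280c and Zfp280d included. The call of Zfp280c was kept without KO mouse 1 and lost without any other single library. Without WT mouse 1, 2, 3 or 4 the log2 fold change was 0.65, 0.67, 0.53 or 0.61, and without KO mouse 2, 3 or 4 it was 0.64, 0.57 or 0.61. The adjusted p by edgeR then ran from 0.0506 (without WT mouse 2) to 0.1615 (without WT mouse 3). Leaving a library out thus ended the call also where the fold change did not shrink. The call of Zfp280d was lost without WT mouse 2 or 4 (log2 fold change -0.60 and -0.61) and without KO mouse 2, 3 or 4 (-0.69, -0.66 and -0.61). The sizes of both changes thus stayed within 0.53 to 0.67 and -0.74 to -0.60 over the 8 omissions. For Zfp280b the log2 fold change was 0.00 without WT mouse 1, its highest library.

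**Figure D2:**
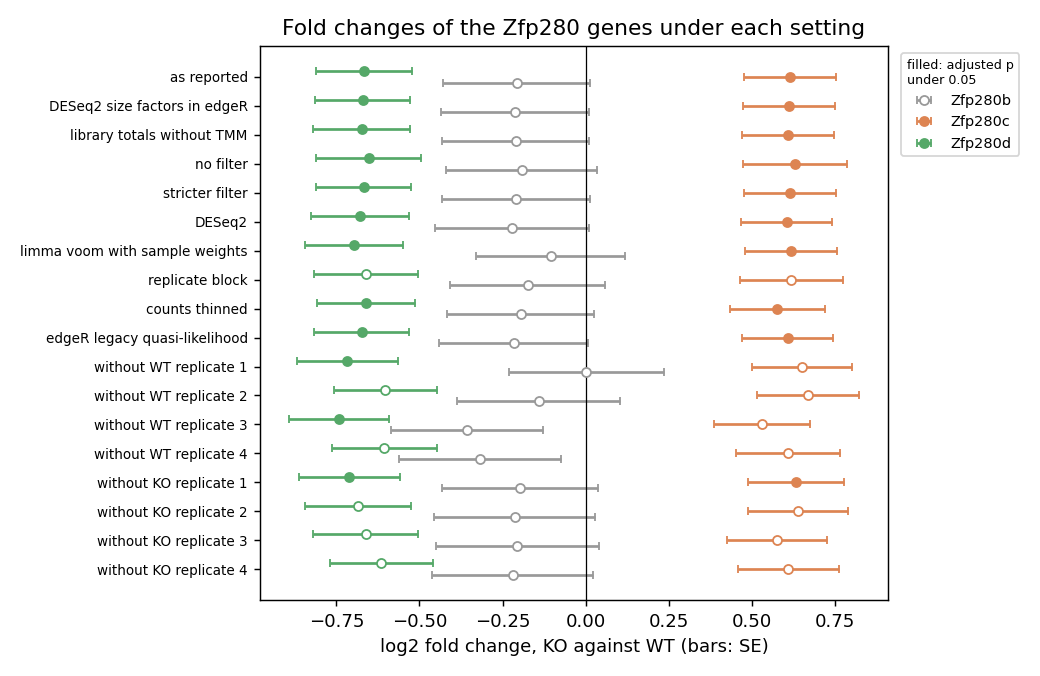
Fitted log2 fold change, KO against WT (horizontal axis, with its SE), of each member under the reported setting and 17 alternatives (rows); filled points have an adjusted p under 0.05. Zfp280c stays between 0.53 and 0.67 and Zfp280d between -0.74 and -0.60, while Zfp280b spans -0.36 to 0.00.

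In counts not corrected for gene length, the changes were opposite and of like size, so the family's total differed little. The 3 genes summed to 344 ± 48.6 CPM in WT and 333 ± 10.7 CPM in KO (SD, n = 4). The KO sums, 324 to 347 CPM, lay inside the WT range of 278 to 395 CPM. The make-up of that sum did shift. Zfp280d gave 52.3% ± 4.42 of the family's counts in WT and 33.7% ± 2.89 in KO. Zfp280c gave 35.1% ± 1.37 and 55.02% ± 2.64, and Zfp280b gave 12.6% ± 3.22 and 11.3% ± 0.570. Per kilobase of all annotated exons, the changes of Zfp280c and Zfp280d were not of like size. Zfp280c was at 23.0 CPM per kilobase in WT and 35.03 in KO, and Zfp280d at 9.43 and 5.90. By the longest transcript, Zfp280c was at 27.7 and 42.1 CPM per kilobase and Zfp280d at 30.3 and 19.0, changes closer in size. Per length, the likeness of the changes therefore depends on the length used.

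The ratio of Zfp280c to Zfp280d counts is taken within a library and does not depend on how libraries are scaled. For WT mice 1 to 4 it came to 0.798, 0.661, 0.655 and 0.595, and for the KO mice in the same order to 1.44, 1.49, 1.76 and 1.90. Zfp280d thus had more counts than Zfp280c in every WT library and fewer in every KO library. Both genes were chosen for moving in opposite directions, so a shift of their ratio and shares follows from that choice. The order is one of counts, since that of levels per length depends on the length used, as given below. The mean ratio was 0.677 ± 0.0861 in WT and 1.65 ± 0.221 in KO (SD, n = 4), which is 2.43 times higher.

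**Figure D3:**
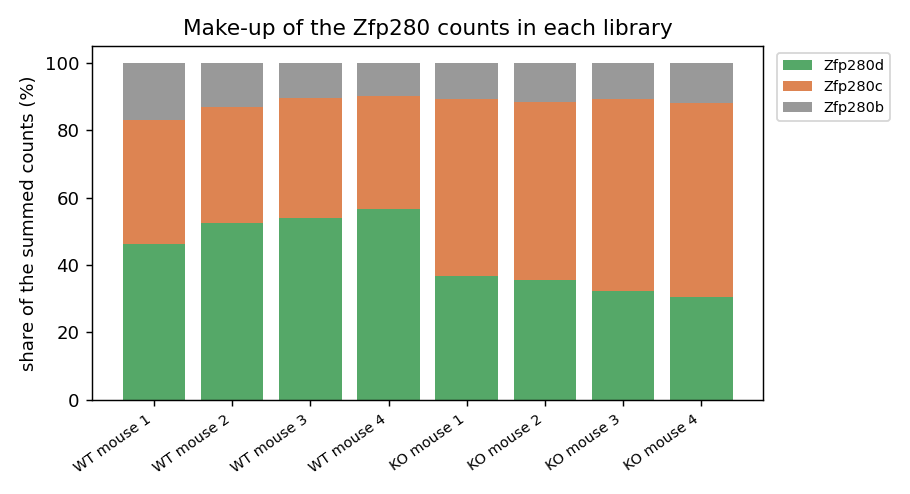
Share of the summed counts of the 3 genes (vertical axis, percent) given by each in every library. Zfp280d takes the largest part in the 4 WT libraries (46.1% to 56.5%) and Zfp280c in the 4 KO libraries (52.6% to 57.7%).

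A count grows with a gene's length, so levels were compared between members as CPM per kilobase (kb). The order depended on the length used for Zfp280d, whose annotated exons together cover 19.02 kb although its longest transcript has 5.91 kb. Over all annotated exons, Zfp280c stood highest in WT at 23.0 ± 3.14 CPM per kb (SD, n = 4), while Zfp280d at 9.43 ± 1.48 and Zfp280b at 8.38 ± 2.67 CPM per kb overlapped. Over the longest transcript, Zfp280d at 30.3 ± 4.77 and Zfp280c at 27.7 ± 3.77 CPM per kb overlapped in WT, and Zfp280b was lowest at 8.59 ± 2.73. In KO, Zfp280c was highest with either length, at 35.03 ± 2.16 or 42.1 ± 2.59 CPM per kb. Zfp280d followed at 19.0 ± 1.74 CPM per kb by its longest transcript, but at 5.90 ± 0.542 by all exons it lay below Zfp280b at 7.20 ± 0.188. The sources used here do not say which exon model the counting used.

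**Figure D4:**
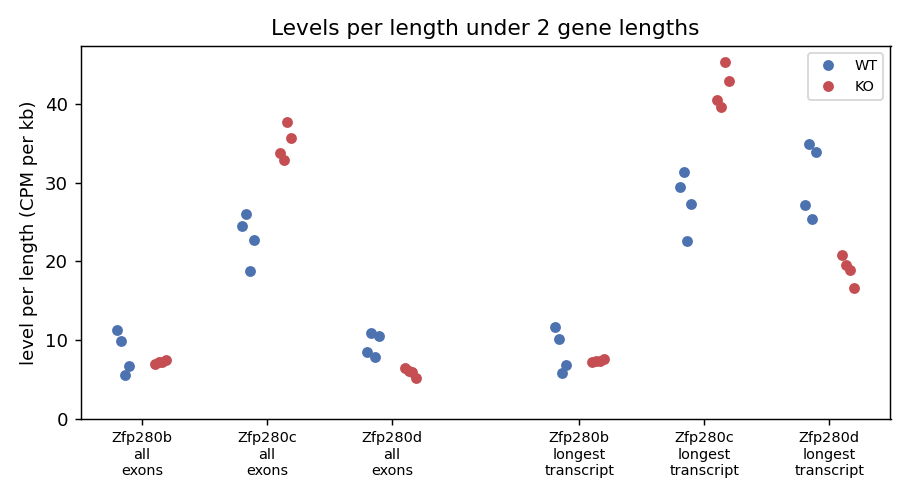
Level per length (vertical axis, CPM per kb) in each library, with the length taken from all annotated exons or from the longest transcript. Zfp280c is highest in the 4 KO libraries with either length (from 32.9 CPM per kb upwards), whereas the place of Zfp280d moves with its length.

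Spread between mice also differed. In WT the SD was 31.8% of the mean for Zfp280b, 13.6% for Zfp280c and 15.7% for Zfp280d, and in KO 2.61%, 6.15% and 9.18%. The 4567 tested genes with a mean of 30 to 200 CPM, a band set after the members' levels were seen, had a median of 16.4% in WT and 16.3% in KO. All 3 members therefore varied less in KO than the median gene of that band, and Zfp280b in WT varied more. The band also holds genes with fewer counts than Zfp280c and Zfp280d. Both were chosen for a change between these groups, which favours genes of small spread, so nothing is read from their spread. The SD of Zfp280b in KO, 0.983 CPM, was below the 2.25 CPM that counting error alone gives at its depth of 210 to 563 reads, so no spread between KO mice could be measured for it. With 4 libraries a group, the difference in spread was not tested.

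The nearest tested genes on each side of a member, 2 per side, showed no change past the test. They lay from 28.1 kb (Aifm1) to 789 kb (Polr2m) away, and genes that were not tested may lie between. Aifm1, which encodes a mitochondrial oxidoreductase that acts in cell death, lies 28.1 kb from Zfp280c and had a log2 fold change of -0.04 (SE 0.183). Elf4, an ETS transcription factor gene 78.5 kb away, had 344 ± 42.2 CPM in WT cells and 317 ± 62.7 in KO cells (SD, n = 4). On the other side, Slc25a14, a mitochondrial carrier gene, and Rbmx2 had log2 fold changes of 0.39 (SE 0.441) and -0.24 (SE 0.286). Around Zfp280d, the transcription factor gene Tcf12 was at 213 ± 17.4 and 216 ± 18.2 CPM, Polr2m at 329 ± 42.5 and 346 ± 54.7 CPM, Mns1 at 72.5 ± 10.3 and 83.6 ± 17.2 CPM, and Tex9 at 94.1 ± 20.8 and 97.8 ± 21.0 CPM. The neighbours of Zfp280b, namely Smarcb1, a subunit of the SWI/SNF remodelling complex, with Chchd10, Prmt2 and Dip2a, had log2 fold changes of 0.12, 0.40, -0.72 and 0.23 with SE from 0.207 to 0.584. For all 12 neighbours the WT and KO libraries overlapped, and edgeR's adjusted p was at least 0.706.

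**Figure D5:**
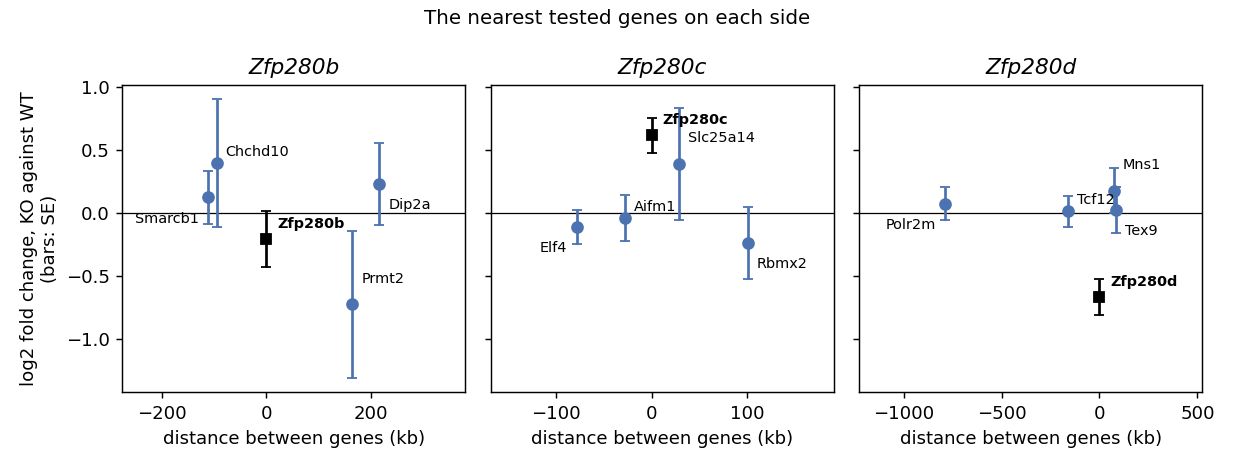
Fitted log2 fold change, KO against WT (vertical axis, with its SE), of each member (black square) and of the 2 nearest tested genes on each side (blue), by distance between genes in kb; negative distances are towards lower coordinates. The neighbours of Zfp280c and Zfp280d lie between -0.24 and 0.39, against 0.61 and -0.67 for the members.

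Zfp280c is X-linked, and the number of X chromosomes could bear on its level. All 8 libraries had RNA from the Y chromosome: Kdm5d had at least 331 counts, Ddx3y at least 301, Eif2s3y at least 248 and Uty at least 243. Xist, the RNA that coats an inactive X chromosome, had 2 to 18 counts per library. The summed level of these 5 genes was 299 to 419 CPM in WT and 240 to 295 CPM in KO, without overlap. It joins Xist to Y-linked genes, so it does not measure the number of X chromosomes. Of the 5, 0 had a fitted fold above 1. At an unadjusted p under 0.05 by edgeR, 2 were lower, beside 11.2% of all genes tested in either direction. These were Kdm5d and Xist, with log2 fold changes of -0.49 and -1.74. Of 404 tested genes on chromosome X, Zfp280c was the 1 higher in KO and Pnck, a protein kinase gene named after its value was seen, the 1 lower, together 0.495%. Pnck had 5.28 ± 1.03 CPM in WT cells and 0.714 ± 0.384 in KO cells. The median log2 fold change of the 404 genes was -0.01, beside 0.00 over all genes tested.

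Genes of the process tied to ZNF280C showed no call. Of 29 measured genes of end resection and homologous recombination, 0 passed edgeR's test over all genes and 0 had an unadjusted p under 0.05, beside 11.2% of all genes tested; DESeq2 and limma voom also called 0. The median log2 fold change was 0.07, with 22 of 29 above 0, beside 5772 of 11498 over all genes. Rbbp8, which starts resection, had 53.3 ± 12.1 CPM in WT cells and 57.4 ± 12.9 in KO cells (SD, n = 4). Rpa2, a subunit of the protein that coats resected DNA, was at 84.6 ± 29.6 and 124 ± 44.5 CPM, and Rad54l, a recombination motor, at 22.6 ± 7.60 and 33.8 ± 11.2 CPM. These last had the smallest p-values of the list, with adjusted p of 0.474 and 0.477 by edgeR's quasi-likelihood test.

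Among 17 genes of CTCF and cohesin, the ring complex that shapes chromatin loops, 0 passed by edgeR, DESeq2 or limma voom, and 2 were higher and 0 lower at an unadjusted p under 0.05, a share near the 11.2% of all genes tested. The 2 were Stag1, a cohesin subunit, with 544 ± 69.96 CPM in WT cells and 695 ± 44.0 in KO cells, and Cdca5, which stabilises cohesin on DNA, with 22.3 ± 3.15 and 33.6 ± 1.98 CPM (SD, n = 4). Their adjusted p were 0.161 and 0.317 by edgeR, and the libraries of the groups did not overlap, as for 5.81% of all genes. Ctcf was at 224 ± 21.4 and 232 ± 25.1 CPM. Over the list, the median log2 change was 0.00, and 9 of 17 lay above 0.

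For the p53 genes linked to ZNF280B, 0 of 3 passed by edgeR, DESeq2 or limma voom, and 1 was higher at an unadjusted p under 0.05, beside 11.2% of all genes tested. That gene was Trp53, with 236 ± 28.7 CPM in WT cells and 295 ± 47.6 in KO cells (SD, n = 4, adjusted p = 0.339 by edgeR). Mdm2 was at 196 ± 18.0 and 185 ± 38.4 CPM, and Mdm4, which restrains p53 alongside it, at 406 ± 29.3 and 356 ± 55.8 CPM. Pogz, a zinc finger gene related to the family that encodes a partner of heterochromatin protein HP1, was at 294 ± 33.8 and 336 ± 48.5 CPM, with a log2 fold change of 0.20 (SE 0.126) that did not pass edgeR's test.

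The genes whose levels followed Zfp280c and Zfp280d most closely were sought among 8357 genes by Pearson's r of log2 CPM over the 8 libraries, a description in which the difference between the groups takes part. Nearest to Zfp280c was Prkdc, the catalytic subunit of the DNA-dependent protein kinase, with r = 0.989, with 209 ± 11.8 CPM in WT cells and 268 ± 6.67 in KO cells. Ahi1, a gene of the primary cilium, and Wdr46, a nucleolar protein gene, followed with r = 0.966 and 0.965. None of these 3 passed edgeR's test for KO against WT. Nearest to Zfp280d were Glt8d1, a glycosyltransferase gene, with r = 0.981, Aim2, a sensor of cytosolic DNA, with r = 0.957, and Zfp518a, another zinc finger gene, with r = 0.952. Zfp518a was the 1 of these 3 that passed, falling from 211 ± 30.3 to 97.8 ± 11.9 CPM, a log2 fold change of -1.09 (SE 0.144).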

How the data were processed

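Raw read counts per gene symbol were deposited by the authors, 1 table per library. Per the labels' protocols, RNA was amplified with the Nugen Ovation system, mapped with STAR (2.4.0d-2) and counted with htseq-count (0.6.1galaxy1); the submitters' processing notes name mm10. The sources used here give neither the annotation nor the strand setting. Amplified reads carry no molecular identifier, so counting errors cover reads only.

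Counts of 4 WT and 4 KO libraries were fitted in edgeR 4.0.16 (R 4.3.3): filterByExpr (minimum count 10, total 15; 11498 genes), TMM factors of 0.974 to 1.03, and the quasi-likelihood test with robust dispersion and adjusted deviances, genotype as the 1 term, two-sided, Benjamini-Hochberg threshold 0.05. An SE is the log2 fold change divided by the square root of F. Alternatives used DESeq2 1.42.0, limma 3.58.1 voom, other scaling and filters, thinning to 3594315 counts and omission of each library. The procedure was tested on simulated counts. Of 24222 symbols, 23053 matched GENCODE by symbol and 809 by a synonym. Members matched RefSeq promoters in 3 of 3 cases.

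Members, lists and tests were chosen with earlier results of these data known. Genes named were the members, listed genes past the threshold (else the 2 with the smallest p), 9 genes fixed by name, 2 neighbours on each side, and the 3 genes most like Zfp280c and Zfp280d in pattern with at least 10 CPM. No library pair of a group agreed within sampling noise (lowest chi-square per degree of freedom 10.9).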

Additional observations from a re-analysis of the deposited data

How the results depend on the processing

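Zfp280c kept its direction in 17 of 17 alternatives and its call in 9, and Zfp280d its direction in 17 of 17 and its call in 11. Besides the omissions, whose log2 fold changes ran from 0.53 to 0.67 for Zfp280c and from -0.74 to -0.60 for Zfp280d, the replicate block ended both calls, at 0.62 (SE 0.155) and -0.66 (SE 0.157). Deviations of same-numbered mice correlated between -0.0917 and -0.0089, and those of other numbers between -0.0924 and 0.142. No pairing by mouse number was thus seen, though with 4 libraries a group these values cannot exclude it. The sources used here do not say whether same-numbered mice were handled together, so the block is given as a check. Zfp280b ran from -0.36 to 0.0016 over the omissions, the highest value, without WT mouse 1, being reversed in sign. The 67 genes past the threshold became 199 without a filter, 154 with DESeq2, 125 at an adjusted p under 0.1, and 35 to 70 over the omissions, with 44 without WT mouse 2 or KO mouse 4 and 35 without WT mouse 3. The 2 genes on chromosome X became 9 without a filter, 5 with DESeq2, 0 to 4 over the omissions, and 1 with the stricter filter, limma voom, the replicate block, thinned counts or edgeR's legacy method. The legacy method was added after seeing the data. Counts of 0 in the 3 gene lists were 0 in all 18 alternatives. With the longest transcript as length, Zfp280c stood at 27.7 CPM per kb in WT and 42.1 in KO, and Zfp280d at 30.3 and 19.0. No scaling moved the median log2 fold change of all genes by over 0.1. The depth of Zfp280b, 150 to 563 reads per library, limits what can be said of its change.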

Other observations

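Among 305 tested genes with a numbered Zfp symbol, Zfp280c was the 1 higher in KO and Zfp280d was 1 of 4 lower, by edgeR's quasi-likelihood test. Zfp280c and Zfp280d were chosen for their change, so nothing is read from these counts. The other lower genes, named after their values were seen, were Zfp445, Zfp518a and Zfp951, with log2 fold changes of -0.94, -1.09 and -3.32. The median over the 305 genes was -0.08, beside 0.00 over all genes tested.

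WT mouse 1 had the largest share of Zfp280b counts of all libraries. Its Zfp280b counts were 17.01% of the 3 genes' sum, against 9.90% to 13.1% in the other WT libraries and 10.8% to 12% in KO, and its ratio of Zfp280c to Zfp280d was the highest of the WT libraries.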
